A study of Mus musculus with 6 samples.

Results

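Zfp281 and Zfp148 are paralogous genes of the mouse genome that encode C2H2 zinc finger transcription factors. They were taken by gene symbol from the transcript rows present in all 6 libraries, keeping for each symbol the transcript with the highest mean count, and they are 2 of 19893 symbols measured and 2 of 13844 genes tested. Primary tumor (PT) spheres (n = 3) came from breast tumors of FvB mice of the MMTV-HER2/Neu line older than 20 weeks, and early lesion (EL) spheres (n = 3) from mice of the same line and strain aged 14 to 18 weeks with no palpable tumor. In both groups the mouse mammary tumor virus promoter drives the Neu oncogene, mainly in mammary epithelium, and cells of digested tissue were kept for 7 days in mammosphere medium on plates of ultra-low adhesion before polyadenylated RNA was sequenced. The labels give no cell sort and no count of mice per library, so the p-values reflect library-to-library spread that could be technical.

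Both proteins bind G-rich DNA through closely similar zinc fingers. Zfp281 (human ZNF281) is known from embryonic stem cells, where it restrains Nanog and works with the NuRD deacetylase complex, and from human carcinoma cells, where it promotes the epithelial-to-mesenchymal transition (EMT) through Snai1. Zfp148 (ZBP-89) is known as an activator or repressor of genes for the cell cycle, the cytoskeleton and collagen, and in mice its loss affects the p53 pathway. The study of this model links Zfp281 with Fgf2, Twist1 and Cdh11 in early lesion cells, and the comparison of PT with EL spheres shows how the transcript of each paralog stands at these stages.

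In the GRCm38 (mm10) RefSeq annotation, Zfp281 lies on chromosome 1 from 136624901 to 136630391, a compact gene of 5491 bases, and Zfp148 on chromosome 16 from 33380775 to 33503903, spread over 123129 bases. Both are on the plus strand. The files hold 2 transcripts of Zfp281, whose counts are identical in every library, and 1 of Zfp148. RefSeq also lists a pseudogene of Zfp148, and the sources used here do not say how reads shared with it were counted. The 250 bases before the annotated starts are shown with the G-rich core that fits both factors' known binding preference, GGGAGGG or its reverse complement CCCTCCC, in capitals, for the members and for Twist1 and Fgf2, so that the start regions of the 2 regulators can be set beside those of linked genes. RefSeq sequences of the GRCm38.p6 build gave 2 starts for Zfp148 and 1 for each of the others, 5′ to 3′:
Zfp281, chr1:136624651-136624900, plus strand: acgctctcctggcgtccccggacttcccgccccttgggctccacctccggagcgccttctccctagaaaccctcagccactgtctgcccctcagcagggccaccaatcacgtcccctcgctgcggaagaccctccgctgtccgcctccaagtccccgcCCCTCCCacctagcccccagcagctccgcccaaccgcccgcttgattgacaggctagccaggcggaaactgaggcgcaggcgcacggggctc
Zfp148 (first start), chr16:33380525-33380774, plus strand: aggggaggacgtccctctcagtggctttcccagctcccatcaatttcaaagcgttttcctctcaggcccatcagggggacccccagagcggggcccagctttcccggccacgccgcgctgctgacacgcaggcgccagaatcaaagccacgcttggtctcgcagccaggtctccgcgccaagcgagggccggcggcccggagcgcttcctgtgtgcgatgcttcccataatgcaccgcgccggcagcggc
Zfp148 (second start), chr16:33381052-33381301, plus strand: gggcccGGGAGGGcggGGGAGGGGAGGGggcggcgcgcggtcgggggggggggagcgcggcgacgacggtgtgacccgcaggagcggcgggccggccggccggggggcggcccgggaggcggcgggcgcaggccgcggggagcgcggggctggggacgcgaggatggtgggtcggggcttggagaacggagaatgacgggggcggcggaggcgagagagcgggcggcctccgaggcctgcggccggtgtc
Twist1, chr12:33957421-33957670, plus strand: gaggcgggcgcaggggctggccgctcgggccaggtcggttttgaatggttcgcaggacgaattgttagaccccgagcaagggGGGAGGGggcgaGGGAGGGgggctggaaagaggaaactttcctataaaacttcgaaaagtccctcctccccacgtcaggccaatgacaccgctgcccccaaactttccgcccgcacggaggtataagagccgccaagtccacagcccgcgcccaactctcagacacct
Fgf2, chr3:37348403-37348652, plus strand: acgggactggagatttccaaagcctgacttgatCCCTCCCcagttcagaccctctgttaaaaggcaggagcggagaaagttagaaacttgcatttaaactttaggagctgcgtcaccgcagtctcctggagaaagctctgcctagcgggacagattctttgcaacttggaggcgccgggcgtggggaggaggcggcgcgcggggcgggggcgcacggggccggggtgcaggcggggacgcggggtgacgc
The core occurs 1 time before the Zfp281 start, 3 times before the second Zfp148 start, where matches overlap, 2 times before Twist1 and 1 time before Fgf2. It is not in the window of the first Zfp148 start. Of 32817 such windows in the table, 19.7% hold the core on either strand, and 5.75% hold the longer GGGGAGGGG, which lies 2 times before the second Zfp148 start and 1 time before Twist1. Of 10373 tested genes with a window, 29.5% hold the core and 9.34% the longer run in at least 1 of their windows. No window of Cdh11 is shown. These matches are letters in a window and say nothing of binding in these cells.

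The depth was high for both genes. Counts over all transcript rows summed to between 78054335 and 85126630 in the PT libraries and to between 69759793 and 73654058 in the EL libraries, and the table of EL replicate 1 is incomplete, without 5404 rows. Neither member is affected, and each had at least 1950 counts in every library. Markers of other cells differed between the groups. The 8 fibroblast markers held 0.0618% to 0.0740% of scaled counts in PT and 6.22% to 6.66% in EL, with all 8 lower in PT, and the 6 endothelial markers held 1.07e-04% to 1.24e-04% in PT and 0.0158% to 0.0169% in EL, with all 6 lower. The 4 pericyte markers (0.00205% to 0.00234% in PT, 0.124% to 0.144% in EL) were all lower too. The 6 macrophage markers held 0.0156% to 0.0178% in PT and 0.00720% to 0.00968% in EL, with 5 higher, and the 6 mammary epithelial markers 0.611% to 0.633% in PT and 0.195% to 0.197% in EL, with 5 higher. Krt5, a basal keratin, was the exception (log2 fold change -8.49, SE 0.15). Krt14, also a basal keratin, was among the 5 that were higher (log2 fold change 0.26, SE 0.04). Of 3 adipocyte markers (2.18e-04% to 2.53e-04% in PT, 0.00206% to 0.00248% in EL), Fabp4 was tested and was lower. The adipocyte genes Adipoq and Plin1 and the T cell genes Cd3e and Cd3g were at 0 in PT, and these lists' untested genes had at most 8 and 13 counts in any library. An EL tissue label also names lung. The lung epithelial markers Sftpa1 and Scgb1a1 were at 0 in all libraries, and Sftpc and Sftpb had at most 11 counts. These genes mark lung epithelium only, so they cannot show whether other lung cells were present. In such bulk libraries fewer cells of a type and less RNA per cell cannot be told apart, and the part of these markers in the results that follow was not tested.

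Zfp281 was lower and Zfp148 higher in PT than in EL spheres, and neither change was large. Zfp281 had 39.1, 36.5 and 39.6 CPM (read counts divided by TMM-scaled library totals) in the PT libraries, against 49.9, 51.8 and 52.0 CPM in the EL libraries. Each PT value lay below each EL value, and the means were 38.4 ± 1.64 CPM in PT and 51.2 ± 1.13 CPM in EL (SD, n = 3 each). The log2 fold change of Zfp281, PT minus EL, was -0.42 (SE 0.04; 95% interval -0.51 to -0.33; adjusted p = 8.54e-07 by edgeR's quasi-likelihood test with Benjamini-Hochberg adjustment), which is 1.33-fold lower in PT. Zfp148 had 128.6, 126.1 and 133.9 CPM in the PT libraries, against 102.5, 109.8 and 109.4 CPM in the EL libraries. Here each PT value lay above each EL value, at 129.5 ± 3.95 CPM in PT and 107.2 ± 4.09 CPM in EL (SD, n = 3 each). The log2 fold change of Zfp148 came to 0.27 (SE 0.04; 95% interval 0.19 to 0.35; adjusted p = 1.59e-05 by edgeR), which is 1.21-fold higher in PT.

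Calls were common in this comparison. At an adjusted p under 0.05 edgeR called 80.7% of tested genes, 39.9% higher and 40.8% lower in PT, and the groups did not overlap for 82.7%, so that the calls and the separation of both members are what most genes show. By size, 52.6% of tested genes had a log2 fold change further from 0 than that of Zfp281, and 65.2% one further from 0 than that of Zfp148. In the order of all log2 fold changes from lowest to highest, Zfp281 stood at percentile 29.4 and Zfp148 at percentile 69.0.

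**Figure D1:**
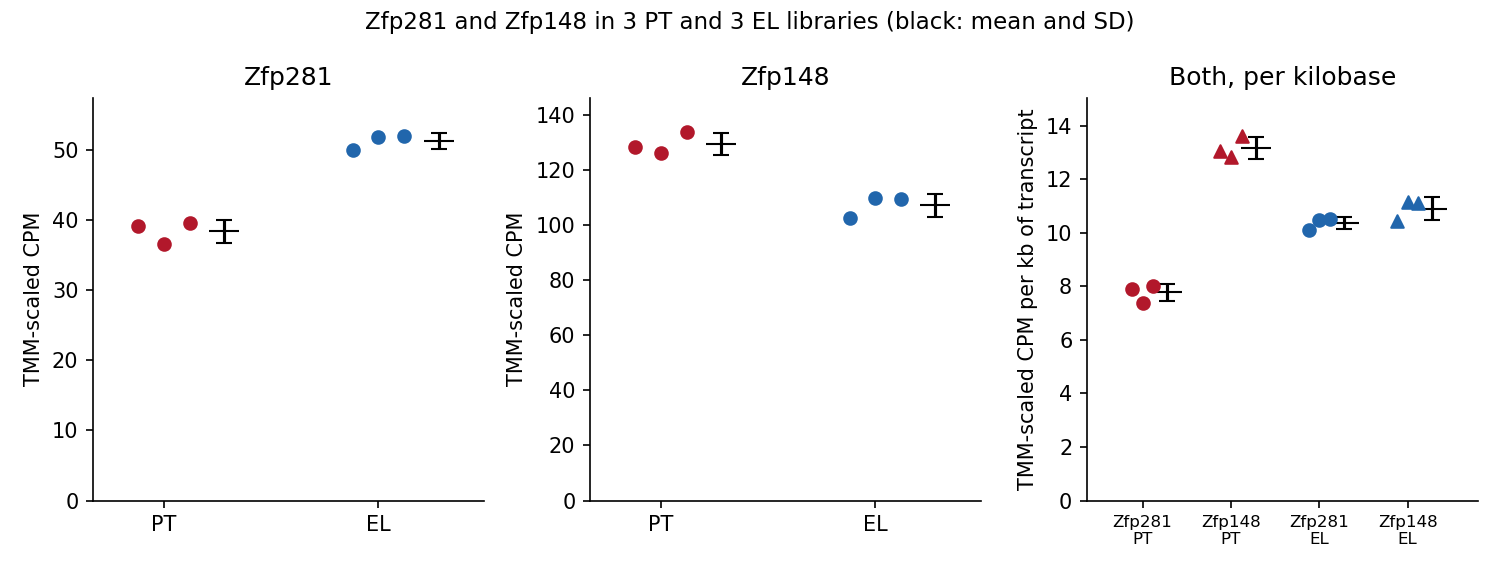
TMM-scaled CPM of Zfp281 (left) and Zfp148 (middle), and CPM per kilobase of transcript for both (right), in 3 PT (red) and 3 EL (blue) libraries; points are libraries and black marks the mean and SD. Zfp281 lies at 36.5 to 39.6 CPM in PT and 49.9 to 52.0 in EL, Zfp148 at 126.1 to 133.9 in PT and 102.5 to 109.8 in EL, and per kilobase the paralogs lie close together in EL and apart in PT.

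How the libraries were scaled set the size of each change. The unscaled counts of Zfp281 were 2005, 1950 and 2202 in PT and 2033, 2058 and 2086 in EL, and the log2 ratio of their means was -0.0047, so its whole difference came from dividing by the library's scaled total. The counts of Zfp148 were 6593, 6735 and 7451 in PT and 4174, 4360 and 4393 in EL, a log2 ratio of 0.68. Scaling by library totals alone, which moved all log2 fold changes by a median of 0.25, put Zfp281 at -0.17 (SE 0.04; adjusted p = 0.00195 by edgeR) and Zfp148 at 0.52 (SE 0.04; adjusted p = 1.65e-08 by edgeR). With scaling by 6 reference genes (Tbp, Hprt, Ywhaz, Sdha, Polr2a and Ppia), the values were -0.44 for Zfp281 and 0.25 for Zfp148. These 6 genes were not all unchanged themselves. In the main fit edgeR called 3 higher and 2 lower in PT, beside 39.9% and 40.8% of all tested genes. Their log2 fold changes lay between -0.20 and 0.23. Under 17 other settings of scaling, test, filter, transcript choice and libraries, both genes held their direction and their call. The filter and transcript settings could move the members mainly through the other genes in the fit. Both members are far above each filter, and no transcript choice alters their relative counts between libraries.

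**Figure D2:**
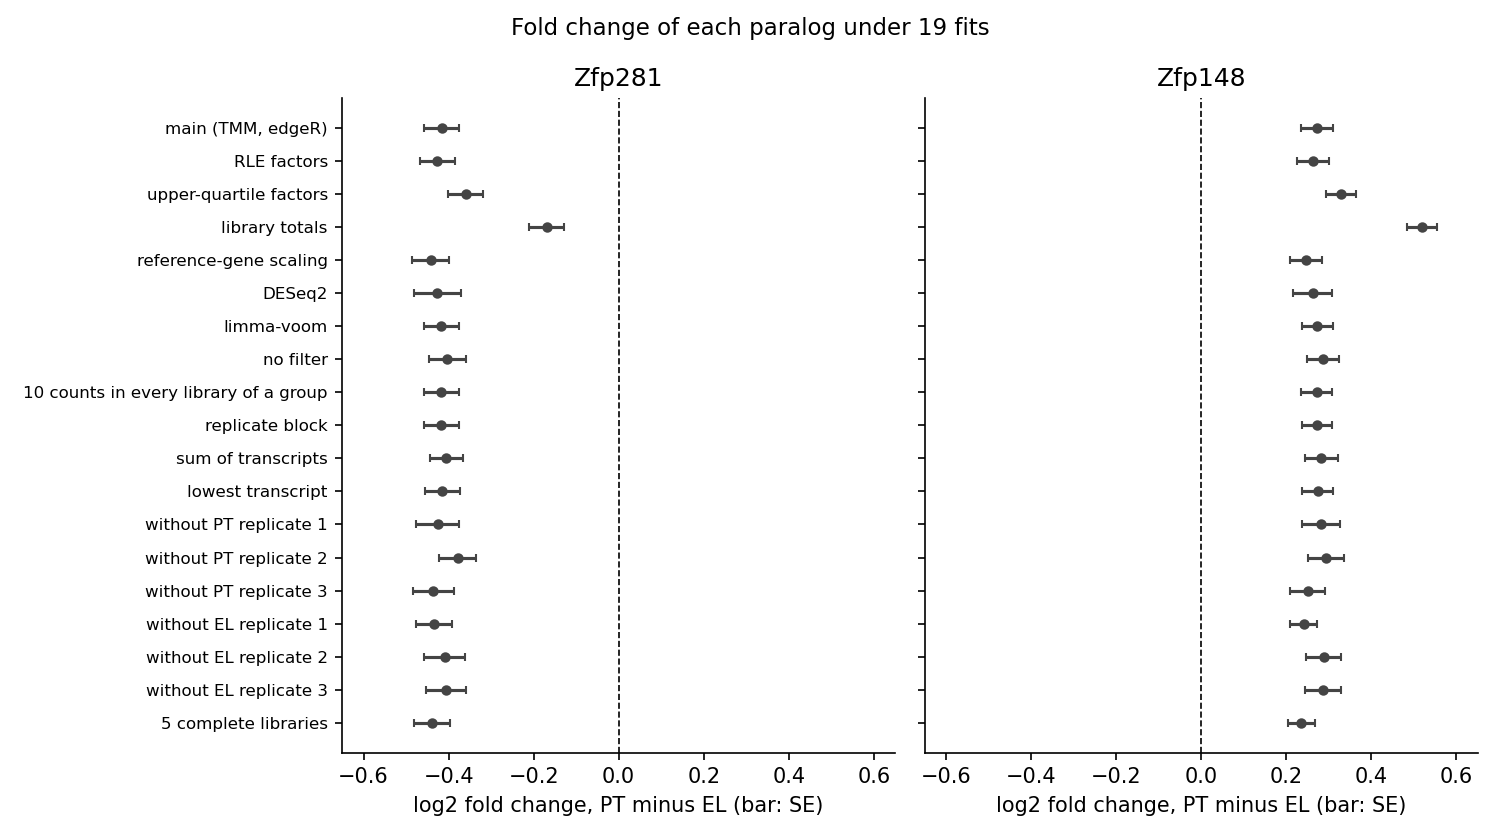
Log2 fold change, PT minus EL, of Zfp281 (left) and Zfp148 (right) with its SE under 19 fits that differ in scaling, test, filter, transcript choice or libraries. All values of Zfp281 lie below 0 and all of Zfp148 above 0; library totals, at -0.17 and 0.52, stand apart from the rest.

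The balance between the paralogs needs no scaling factor, since both were counted in the same library. There were 3.29, 3.45 and 3.38 Zfp148 counts for each Zfp281 count in the PT libraries, against 2.05, 2.12 and 2.11 in the EL libraries. All PT ratios lay above all EL ratios. On the log2 scale the ratio of Zfp281 to Zfp148 was -1.75 ± 0.04 in PT and -1.07 ± 0.02 in EL (SD, n = 3 each), a difference of -0.69, so that Zfp148 gained 1.61-fold on Zfp281 (exact two-sided permutation p = 0.1, the smallest that 3 libraries against 3 allow). Leaving out each library in turn gave -0.71 to -0.67.

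Per kilobase of the counted transcript, with GENCODE lengths of 4937 bases for Zfp281 and 9830 bases for Zfp148, the paralogs were at unlike levels in PT and at nearly like levels in EL. In PT Zfp281 was at 7.78 ± 0.33 and Zfp148 at 13.2 ± 0.40 CPM per kb (SD, n = 3). In EL Zfp281 was at 10.4 ± 0.23 and Zfp148 at 10.9 ± 0.42 CPM per kb (SD, n = 3), and Zfp148 was the higher one in each EL library. These levels assume that the reads fall over the annotated lengths. In CPM averaged over the 6 libraries, Zfp281 stood at percentile 62.6 and Zfp148 at percentile 85.8 of tested genes.

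**Figure D3:**
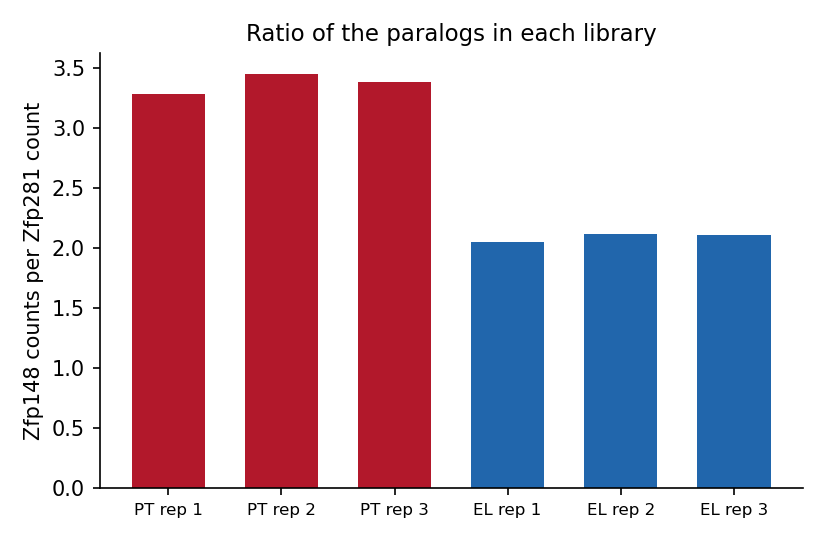
Zfp148 counts per Zfp281 count (bars, from 0) in each of 3 PT (red) and 3 EL (blue) libraries. The PT bars reach 3.29 to 3.45 and the EL bars 2.05 to 2.12.

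Set against gene groups of the same library, the standing of both paralogs followed the shifts of the groups themselves. Relative to the mean log2 count of 12 epithelial genes, Zfp281 was at -3.17 ± 0.07 in PT and -1.04 ± 0.05 in EL, a difference of -2.13, and Zfp148 was at -1.41 ± 0.06 in PT and 0.027 ± 0.063 in EL, a difference of -1.44 (SD, n = 3 each; exact two-sided permutation p = 0.1 for both, the smallest possible). Relative to 16 mesenchymal and EMT genes the differences were 3.64 for Zfp281 and 4.33 for Zfp148, and relative to 8 mitosis genes 1.07 and 1.76 (exact permutation p = 0.1 for each). The epithelial, mesenchymal and mitosis lists had median log2 fold changes of 1.80, -4.20 and -1.59. A gene with no change would show the same signs, so these signs say nothing particular of the members. Relative to 6 reference genes, of which most were themselves called different between the groups, the differences were -0.44 for Zfp281 and 0.25 for Zfp148.

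The mesenchymal and EMT genes, the group in which Zfp281 is known to act, moved far more than Zfp281. Of 16 tested members 15 were lower and 1 higher in PT (median log2 fold change -4.20, against 0.0049 over all tested genes, of which 40.8% were lower), beside fibroblast, endothelial and pericyte markers that were all lower. Fgf2, a fibroblast growth factor, had 0.975, 0.674 and 0.970 CPM in PT and 7.96, 9.29 and 8.97 CPM in EL (log2 fold change -3.32 with SE 0.14; edgeR's adjusted p = 1.19e-10). Its PT libraries held 50, 36 and 54 counts. Cdh11, a cadherin of mesenchymal cells, had 7.70, 7.45 and 10.8 CPM in PT and 785.8, 709.3 and 741.1 CPM in EL (log2 fold change -6.42, SE 0.10). Twist1, an EMT transcription factor, had 0.624, 0.393 and 0.503 CPM in PT and 38.4, 42.4 and 39.6 CPM in EL. The groups did not overlap for any of these 3 genes, as for 82.7% of all tested genes. Prrx1, a homeobox factor of mesenchyme, and Zeb1, a repressor of epithelial genes, were at -6.21 (SE 0.07) and -5.72 (SE 0.09), and the intermediate filament gene Vim at -3.78 (SE 0.05).

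Snai1 and Lgr5, also of this list and chosen for naming once their values had been seen, were both lower in PT. Snai1 had 2.83, 3.07 and 3.02 CPM in PT and 62.3, 73.2 and 67.9 CPM in EL (log2 fold change -4.51, SE 0.07). Lgr5, a stem cell receptor, had 1, 4 and 2 counts in PT and 616, 497 and 544 counts in EL. Prom1, a surface protein of progenitor cells and the 1 member that was higher, also named for its value, had 130.3, 127.0 and 130.3 CPM in PT and 64.4, 63.5 and 63.5 CPM in EL (log2 fold change 1.02, SE 0.03). Next to these values Zfp281 itself changed by 1.33-fold.

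The epithelial genes went the other way, with all 12 higher in PT (median 1.80; 39.9% of tested genes were higher). The tight junction genes Cldn4 and Cldn3 were at 2.52 (SE 0.04) and 2.23 (SE 0.04), and the luminal keratin genes Krt18 and Krt8 at 2.05 (SE 0.03) and 2.01 (SE 0.03). The smallest change of the list, 0.76, exceeded that of Zfp148.

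**Figure D4:**
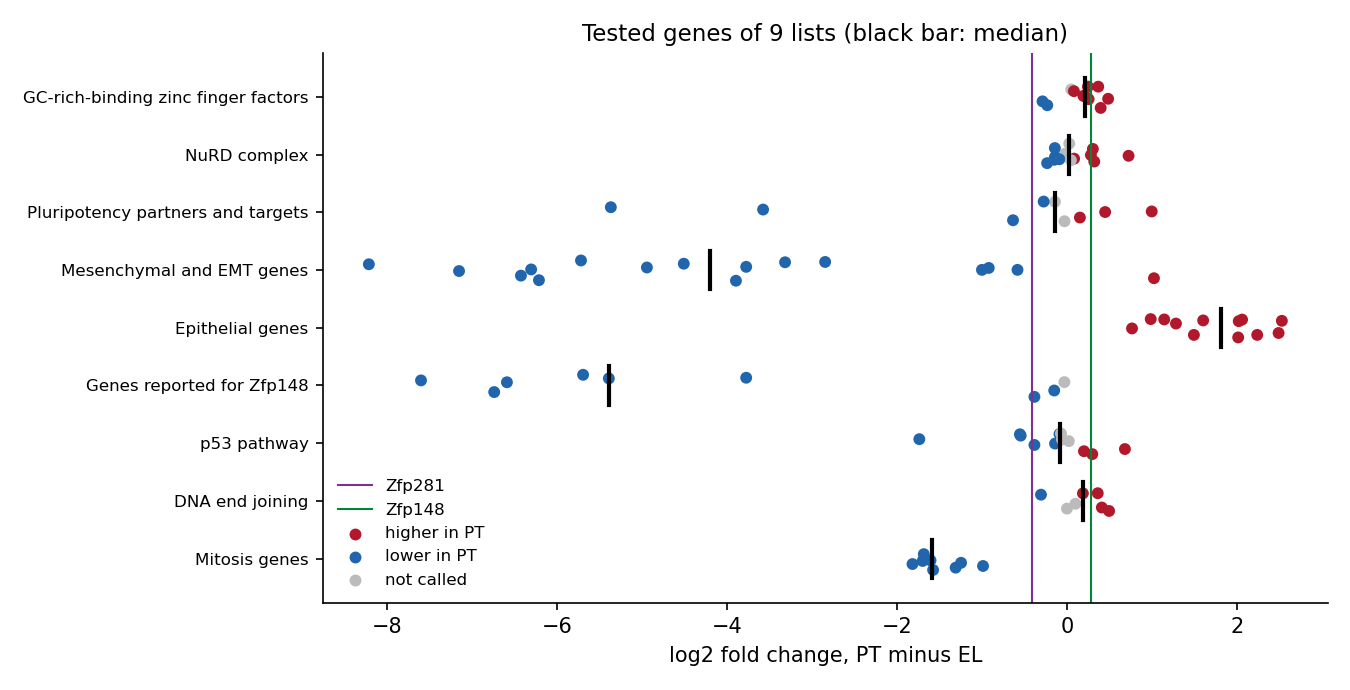
Log2 fold change, PT minus EL, of each tested gene of 9 lists (points, red higher and blue lower in PT by edgeR, grey not called), with the median as a black bar and vertical lines at Zfp281 (-0.42) and Zfp148 (0.27). The mesenchymal and Zfp148-linked lists spread far to the left of Zfp281 and the epithelial list lies right of Zfp148. All points are from the main fit with TMM scaling. With library totals, which are not drawn, every NuRD call is higher and p53 genes are split 8 higher and 4 lower. There 57.1% of all tested genes are higher and 29.7% lower.

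Genes of the NuRD complex, a partner of Zfp281, were called near the background, with 5 higher and 5 lower of 13 (median 0.02), beside 39.9% higher and 40.8% lower among all tested genes. Mta3, a subunit known from breast epithelial cells, had 84.4, 80.4 and 79.7 CPM in PT and 49.9, 50.3 and 48.3 CPM in EL (log2 fold change 0.72, SE 0.04). The histone-binding subunit Rbbp4 rose by 0.32 (SE 0.03), the methyl-DNA reader Mbd2 by 0.30 (SE 0.04) and Gatad2a by 0.28 (SE 0.04) on the log2 scale. These 4 are named for the smallest p-values of the list and were all higher. The 5 lower members, which include the deacetylase genes of the list, had log2 fold changes between -0.24 and -0.09. With library totals 11 were higher and no member was called lower, where all tested genes shifted too, to 57.1% higher and 29.7% lower, and with upper-quartile factors 2 were lower.

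Many pluripotency partners and targets of Zfp281 were scarce. Of 18 genes 9 were tested, with 3 higher and 4 lower (median -0.15), near the 39.9% and 40.8% of all tested genes. With library totals 3 were higher and 2 lower, and 8 others had at most 7 counts in any library. Nanog, which Zfp281 restrains in stem cells and which was named after its values were seen, had 9, 18 and 9 counts in PT and 11, 9 and 10 counts in EL, and its groups overlapped (adjusted p = 0.739 by edgeR). Sox2, a stem cell factor, had 0, 0 and 1 counts in PT and 17, 13 and 14 counts in EL. The DNA methyltransferase gene Dnmt3a had 116.4, 118.7 and 117.5 CPM in PT and 81.7, 89.4 and 88.0 CPM in EL (log2 fold change 0.44, SE 0.04), and Dnmt3l, its cofactor, was at -3.58 (SE 0.29). Myc, a growth regulator, was at -0.28 (SE 0.03), and at -0.03 with library totals (adjusted p = 0.372 by edgeR). Tet3 has no row in EL replicate 1. In the 5 complete libraries, where edgeR called 79.2% of genes, it averaged 131.5 CPM over 3 PT and 107.3 CPM over 2 EL libraries (log2 fold change 0.29, SE 0.03; adjusted p = 1.04e-08).

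Genes reported as bound or regulated by Zfp148 were mostly lower in PT, in 8 of 9 tested members (median -5.39), where 40.8% of all tested genes were lower. Under library-total scaling the count was 7 lower and 2 higher, beside 29.7% lower and 57.1% higher among all tested genes. Those that moved most were genes of fibroblasts, and the fibroblast markers, which include 3 of the list's genes, were all lower beside them. Mmp3, the stromelysin gene that ZBP-89 activates in human cells, had 8.56, 10.7 and 10.5 CPM in PT and 1781, 1818 and 2193 CPM in EL (log2 fold change -7.60, SE 0.10). The collagen genes Col1a1 and Col1a2 were at -6.74 (SE 0.07) and -6.59 (SE 0.08), and the growth factor receptor gene Pdgfra at -5.69 (SE 0.06). The exception was Odc1, the ornithine decarboxylase gene, named after its values were seen, at 76.1 ± 4.76 CPM in PT and 78.0 ± 2.29 CPM in EL (SD, n = 3 each; adjusted p = 0.484 by edgeR); with library totals it was called higher, at 0.21 (SE 0.04). Gast, the gastrin gene, had 0 counts in all libraries.

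The p53 pathway, which Zfp148 touches in mice, had 3 genes higher and 6 lower of 12 (median -0.08), beside 39.9% and 40.8% of all tested genes. With library totals 8 were higher and 4 lower, beside 57.1% and 29.7%. Gadd45a, Phlda3 and Sesn2, which p53 induces, were at -1.74 (SE 0.04), -0.56 (SE 0.04) and -0.55 (SE 0.04). Trp53inp1, another p53 target, had 130.7, 128.6 and 131.6 CPM in PT and 77.1, 85.0 and 82.5 CPM in EL (log2 fold change 0.68, SE 0.04). Of 7 genes of DNA end joining, a repair process in which human ZNF281 takes part, 4 were higher and 1 lower (median 0.18), or 6 higher and none lower with library totals, against the same shares of all tested genes. Xrcc6, Xrcc4 and Xrcc5 rose by 0.49 (SE 0.06), 0.41 (SE 0.07) and 0.36 (SE 0.05), and Xrcc2 was at -0.31 (SE 0.08), or -0.06 with library totals. All 8 mitosis genes were lower (median -1.59), where 40.8% of all tested genes were, among them Top2a (-1.69, SE 0.05), Cdk1 (-1.58, SE 0.07), Mki67 (-1.25, SE 0.05) and Ccna2 (-0.99, SE 0.04).

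Among 11 other zinc finger factors that bind GC-rich DNA, 8 were higher and 2 lower in PT (median 0.21), where 39.9% and 40.8% of all tested genes were. With library totals 9 were higher and none lower, where 57.1% and 29.7% of all tested genes were. Vezf1 had 114.8, 111.3 and 114.7 CPM in PT and 78.7, 82.0 and 83.7 CPM in EL (log2 fold change 0.48, SE 0.03). Zbtb17 and Zbtb7a rose by 0.39 (SE 0.05) and 0.25 (SE 0.03). Sp3, a relative of Sp1, was lower like Zfp281, at -0.24 (SE 0.03), but at 0.01 with library totals (adjusted p = 0.754 by edgeR).

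Genes named like the members were described by all 318 tested genes whose symbol starts with Zfp and a number, a set chosen after the data had been seen. Membership went by symbol alone, not by type of zinc finger. Of these 54.4% were called higher and 17.6% lower, 173 and 56 genes, where 39.9% and 40.8% of all tested genes were, with a median log2 fold change of 0.23 against 0.0049 over all tested genes. With library totals 237 were higher and 36 lower (74.5% and 11.3%, against 57.1% and 29.7% of all tested genes), and with reference-gene scaling 158 and 58 (49.7% and 18.2%, against 37.5% and 42.1%). Zfp148 lay near the middle of the set, with rank 180 from the lowest log2 fold change, and Zfp281 had rank 38. By CPM over both groups Zfp148 was number 10 and Zfp281 number 42 of the 318.

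**Figure D5:**
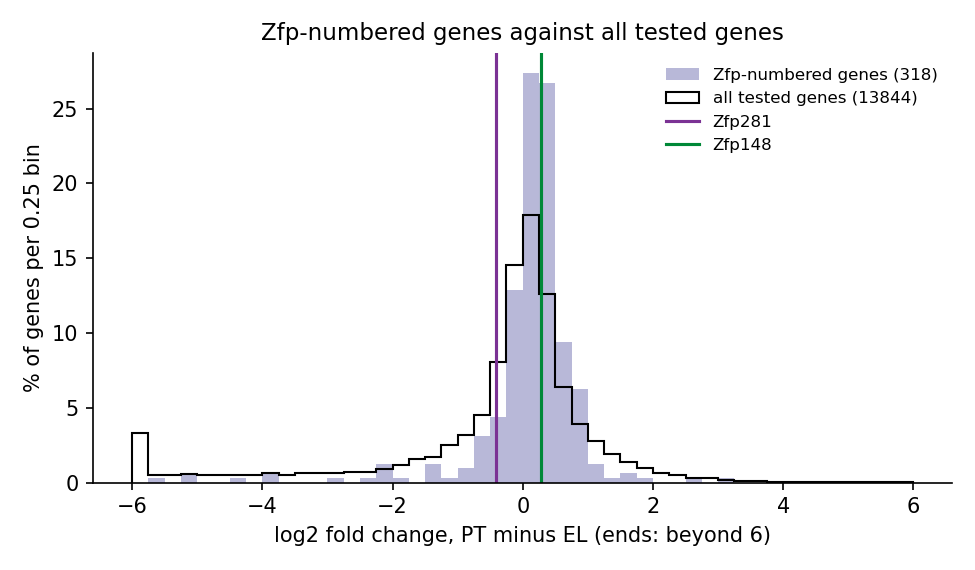
Share of genes (percent per 0.25 bin) by log2 fold change, PT minus EL, for 318 Zfp-numbered genes (filled) and all 13844 tested genes (outline), with lines at Zfp281 and Zfp148. The Zfp-numbered genes centre at 0.23, near Zfp148 and to the right of Zfp281.

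The genes most like each paralog over the 6 libraries were found by the root mean square distance of mean-centred log2 CPM among 9655 genes with a mean of at least 10 CPM. They were picked for likeness in these same libraries, so fold changes near those of the members are no separate result. Nearest to Zfp281 were Tulp4, a tubby-like protein gene (distance 0.015), Polr2b, a large subunit of RNA polymerase II (0.021), Xbp1, a transcription factor of the unfolded protein response (0.023), the ubiquitin ligase gene Rnf126 (0.023) and the retinol dehydrogenase gene Rdh13 (0.025), against a median distance of 0.30. Tulp4 was at 111.6 ± 5.01 CPM in PT and 148.9 ± 3.26 CPM in EL (SD, n = 3 each; log2 fold change -0.42, SE 0.04). Nearest to Zfp148 were the deubiquitinase gene Vcpip1 (0.0096), the phosphatase subunit gene Ppp2r5e (0.015), the proteasome activator gene Psme4 (0.015), Api5 (0.016) and Mbd2 of the NuRD list (0.016), against a median of 0.20. Vcpip1 was at 68.6 ± 2.11 CPM in PT and 57.3 ± 1.80 CPM in EL (SD, n = 3 each; log2 fold change 0.26, SE 0.04).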

How the data were processed

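RNA from 3 PT and 3 EL sphere libraries was analysed. The authors deposited counts of reads for each RefSeq transcript, as whole numbers and without normalization. Per the submitters' processing notes, STAR, featureCounts and DESeq2 were used with the builds mm10 and hg19; the sources used here give no versions, parameters or strand setting. Overlapping genes and near-identical copies therefore cannot be told apart, and a read may be counted for several transcripts of a gene. The table of EL replicate 1 lacks 5404 rows, so rows present in all 6 libraries were used, 1 transcript per symbol, and a gene without a row there was tested in the 5 complete libraries.

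Genes passing filterByExpr were tested on TMM-scaled counts with edgeR 4.0.16 (R 4.3.3), quasi-likelihood test, group as the only term, Benjamini-Hochberg adjustment over 13844 genes and a threshold of 0.05. The fit was also run on simulated counts with few changed genes, as many up as down. Because most genes changed in these data, that run cannot check their scaling. SE is the log2 fold change over the root of F. The ratio of the paralogs was compared by an exact permutation test. Replicates of a group differed beyond sampling noise (chi-square per degree of freedom 2.89 to 12.3) and were kept as separate samples.

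Members and lists were chosen with earlier results of these data known. Named by rule are both members, Fgf2, Twist1 and Cdh11, up to 4 genes of each list with the smallest p-value, and the 5 genes most like each member. Snai1, Lgr5, Prom1, Nanog, Tet3, Odc1, Gast and the single marker and reference genes were named outside this rule, after their values were seen. Lists are described by counts and medians, with no set test. Other settings tried were upper-quartile and RLE factors, library totals, reference-gene scaling, DESeq2 1.42.0, limma-voom (limma 3.58.1), 2 other filters, a replicate block, summed or lowest transcripts, each library left out and, added after seeing the data, the 5 complete libraries and ratios to gene lists. Sequences are from RefSeq.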

Additional observations from a re-analysis of the deposited data

How the results depend on the processing

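Under 17 other settings Zfp281 stayed lower and Zfp148 higher in PT, each past the threshold, with log2 fold changes of -0.44 to -0.17 and of 0.24 to 0.52. The filter and transcript settings among them reach the members mainly through the other genes in the fit. Without 1 library in turn they lay between -0.44 and -0.38 and between 0.24 and 0.29. In the 5 complete libraries they were -0.44 and 0.24. Over 54 named genes, the members, Tet3 and Krt14 aside, 962 of 970 values kept direction and call. The exceptions with library totals were Sp3 (0.011), Myc (-0.03), Xrcc2 (-0.06), Nanog (0.098) and Odc1 (0.21). The others were Odc1 with upper-quartile factors (0.021) and without PT replicate 1 (0.0078), and Nanog without PT replicate 3 (0.053). Without 1 library in turn, Nanog lay between -0.55 and 0.053 and Odc1 between -0.081 and 0.0078, and neither passed the threshold. The number of genes called lay between 10730 and 12197 against 11173. Library totals gave 7911 higher and 4111 lower genes, against 5527 and 5646. Of the 95 pathway genes tested, 36 were higher and 47 lower, beside 39.9% and 40.8% of all tested genes. With library totals the counts were 52 and 34, beside 57.1% and 29.7%.

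The within-library ratios to gene lists, which cannot pass the threshold with 3 libraries against 3 (exact permutation p = 0.1), gave for Zfp281 -2.13 to epithelial, -0.44 to reference, 3.64 to mesenchymal and 1.07 to mitosis genes, and for Zfp148 -1.44, 0.25, 4.33 and 1.76 to the same lists. The signs to the epithelial, mesenchymal and mitosis lists are those that a gene with no change would show.

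The replicate numbers share only a label: same-numbered PT and EL libraries had correlations of deviations of 0.022, 0.0084 and -0.0022, and not every library correlated best with its own number. With a replicate block, edgeR called 11203 genes, Zfp281 was at -0.42 and Zfp148 at 0.27, and the difference of the ratio was -0.69 (exact sign-flip permutation p = 0.25, the smallest that 3 numbers allow).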
